A study of Mus musculus with 130 samples.

Results

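Liver RNA of the C57-related strains C57BL/6J, C57BLKS/J, C57L/J and C58/J was compared with that of 27 other classical inbred strains, all on an iron-rich diet. The members were chosen by strain name alone: 4 of the 115 libraries of a strain panel, and 27 libraries whose strain label is not that of a recombinant inbred set (BXD, AXB, BXA, BXH or CXB), with 1 of 2 libraries kept for 129X1/SvJ. The whole series holds 130 libraries. Every animal of both groups was a male fed chow for 4 weeks and then 2% carbonyl iron (20000 ppm) for 6 weeks, and messenger RNA was taken from the large lobe of the liver, per the labels. The labels name no transgene, deletion or treatment other than the diet. Each strain is represented by 1 mouse, so the unit of replication is the strain, and p-values measure spread between strains, which here cannot be told apart from spread between mice. Lines of a shared ancestry are not independent draws.

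C57BL/6J and C57L/J descend from the same founder mating, C58/J from a related female of the same stock, and C57BLKS/J is a C57BL line that carries segments like those of DBA/2J. C57BL/6J is also the strain whose genome is the mouse reference mm10, to which the submitters' processing notes refer. A strain can differ from the reference in a gene's sequence, in whether a copy of a gene is present, or in how much RNA a gene makes. Retrocopies (processed pseudogenes) are intronless copies of a messenger RNA pasted back into the genome. Some have inserted recently enough to be carried by some mouse lines only. The copies Gm15459 and Gm3375, described next, have positions in the reference genome, so neither is missing from that C57BL/6J sequence. Whether any copy is missing from another strain was not tested.

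Sequences of copies and their parents are given first because many of the differences below lie in pairs that are nearly the same letter for letter. Gm15459 is a copy of Hspa8, the constitutive heat shock chaperone, and Gm3375 is a copy of Psmb5, a catalytic subunit of the proteasome. Over the 1941 aligned bases of GENCODE M21 transcripts (GRCm38), Gm15459 differed from Hspa8 at 5 positions, all within the Hspa8 coding sequence. Below, 120 coding bases of each parent and the aligned bases of its copy are shown 5′ to 3′ on the transcript strand, in the window with the most mismatches, with the mismatched bases in capitals. The window of Hspa8 is chr9:40801976-40802095 on the + strand and that of Gm15459 is chr5:5783383-5783502 on the - strand. The window of Psmb5 is chr14:54616631-54616750 on the - strand and that of Gm3375 is chr7:3181363-3181482 on the + strand.
Hspa8: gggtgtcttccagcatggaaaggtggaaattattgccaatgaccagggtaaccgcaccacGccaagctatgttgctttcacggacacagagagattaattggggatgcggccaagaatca
Gm15459: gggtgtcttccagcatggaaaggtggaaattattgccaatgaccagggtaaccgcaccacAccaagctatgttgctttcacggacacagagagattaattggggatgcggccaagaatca
Psmb5: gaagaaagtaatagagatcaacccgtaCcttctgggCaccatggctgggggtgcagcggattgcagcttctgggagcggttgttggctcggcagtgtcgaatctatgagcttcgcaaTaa
Gm3375: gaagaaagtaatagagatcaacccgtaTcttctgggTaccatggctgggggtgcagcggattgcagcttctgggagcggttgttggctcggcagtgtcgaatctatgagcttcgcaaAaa
The Hspa8 and Gm15459 windows differ at 1 of 120 bases and the Psmb5 and Gm3375 windows at 3. A sequencing read that falls between such positions matches both genes equally well, and how the authors' counting treated such reads is not given in the sources used here.

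Of 14551 genes tested with edgeR's quasi-likelihood test, 67 were called at a Benjamini-Hochberg adjusted p below 0.05, which is 0.460% of those tested. Of these, 34 were higher in the C57-related strains (0.234% of those tested) and 33 were lower (0.227%). The 2 directions differed in make-up. The 34 higher genes comprised 12 interferon-type genes, 3 parents of near-identical copies, 1 pseudogene and 18 other coding genes. Of the 12, 5 are on the list of interferon-stimulated genes, and Cmpk2, Ifi206, Ifi208, Ifi209, Ifi213, Trim12a and Trim34a were grouped with them after their values were seen. The 33 lower genes comprised 19 pseudogenes, the coding copies Eno1b and Gm10282, and 12 other coding genes. Pseudogenes were 5.66% of all genes tested. An unadjusted p below 0.05 was reached by 1217 genes, and the median log2 difference of all tested genes was -0.02. In 16 of the 67 the groups did not overlap in CPM (counts scaled to a library total of 1000000), 6 of them higher and 10 lower. Among all 14551 genes tested, 18 did not overlap, 6 of them higher. Without C57BL/6J 34 genes were called, 30 of them among the 67, and without C57L/J 44 genes were called, 32 of them among the 67.

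Libraries were of similar depth. Total counts, in units of 1000000, ran from 11.4 to 12.5 in the 4 C57-related strains and from 9.86 to 13.4 in the other 27 (two-sided exact permutation p = 0.457). Counts from the mitochondrial genome made up 7.28% to 8.45% of the C57-related libraries and 4.81% to 8.74% of the others. Hepatocyte markers were abundant in all 4: their summed level ran from 116287 to 153699 CPM, against 80109 to 232015 CPM in the other strains.

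Retrocopies that were all but unread in C57-related strains gave the clearest differences. Gm15459 was at 0 CPM in C57BL/6J and C58/J, 1.15 CPM in C57BLKS/J and 2.25 CPM in C57L/J. In the other 27 strains it ran from 221 to 528 CPM with a median of 330, so the groups were far apart (log2 difference -8.54, SE 0.61, adjusted p = 2.39e-11). Hspa8 itself showed the opposite pattern, at 572.02 to 809 CPM in the 4 strains against 246 to 712 CPM with a median of 401 in the others (log2 difference 0.77, SE 0.16, adjusted p = 0.0145). Only A/J, at 712 CPM, reached the C57-related range, and the call was lost without C57BL/6J (adjusted p = 0.136) or C57L/J (0.0654). When the counts of Hspa8 and Gm15459 were added, the C57-related mean was 686 ± 96.8 CPM (SD, n = 4) and that of the others 725.8 ± 161 CPM (SD, n = 27). For that sum edgeR gave a log2 difference of -0.09 (SE 0.17, adjusted p = 0.942). The copy took 0% to 0.326% of the summed counts in the C57-related strains and 40.6% to 47.9% in the others. Adding copies to parents was chosen after the data were seen.

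Gm3375 and Psmb5 formed a second such pair. Gm3375 was at 0, 0.177, 0.155 and 0 CPM in C57BL/6J, C57BLKS/J, C57L/J and C58/J, and at 8.85 to 17.2 CPM in the other strains (log2 difference -7.17, SE 0.33, adjusted p = 2.52e-16). Psmb5 was at 39.7, 47.2, 36.98 and 34.6 CPM in those 4 strains, in the same order, and at 13.9 to 24.9 CPM elsewhere. Neither gene's groups overlapped, and the Psmb5 difference was called (log2 1.04, SE 0.10, adjusted p = 8.49e-09). The sum of both was 39.7 ± 5.51 CPM in the C57-related strains and 32.9 ± 4.10 CPM in the others, and edgeR gave a log2 difference of 0.27 (SE 0.10, adjusted p = 0.382; unadjusted p = 0.0100). The plot of copies against parents shows both pairs.

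Eno1, the glycolytic enzyme enolase 1, and its coding copy Eno1b on chromosome 18 followed the same course with exceptions. Eno1b was at 3.76, 2.12, 6.82 and 8.88 CPM in C57BL/6J, C57BLKS/J, C57L/J and C58/J, against a median of 374 CPM in the other 27 (log2 difference -6.04, SE 1.12, adjusted p = 0.00415). A further 3 strains were low as well: SEA/GnJ at 0 CPM, KK/HlJ at 5.59 CPM and PL/J at 10.3 CPM. Those 3 strains also had the highest Eno1 of the 27, at 411, 475 and 707 CPM, while the median of the 27 was 145 CPM. Eno1 was at 478 to 682 CPM in the C57-related strains (log2 difference 1.60, SE 0.35, adjusted p = 0.0212), a call lost without C58/J, C57BL/6J or C57L/J. With Eno1b and the pseudogene Gm5855 added, Eno1 stood at 565.2 ± 95.1 CPM against 546 ± 132 CPM (edgeR log2 difference 0.05, SE 0.18, adjusted p = 0.973).

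**Figure D1:**
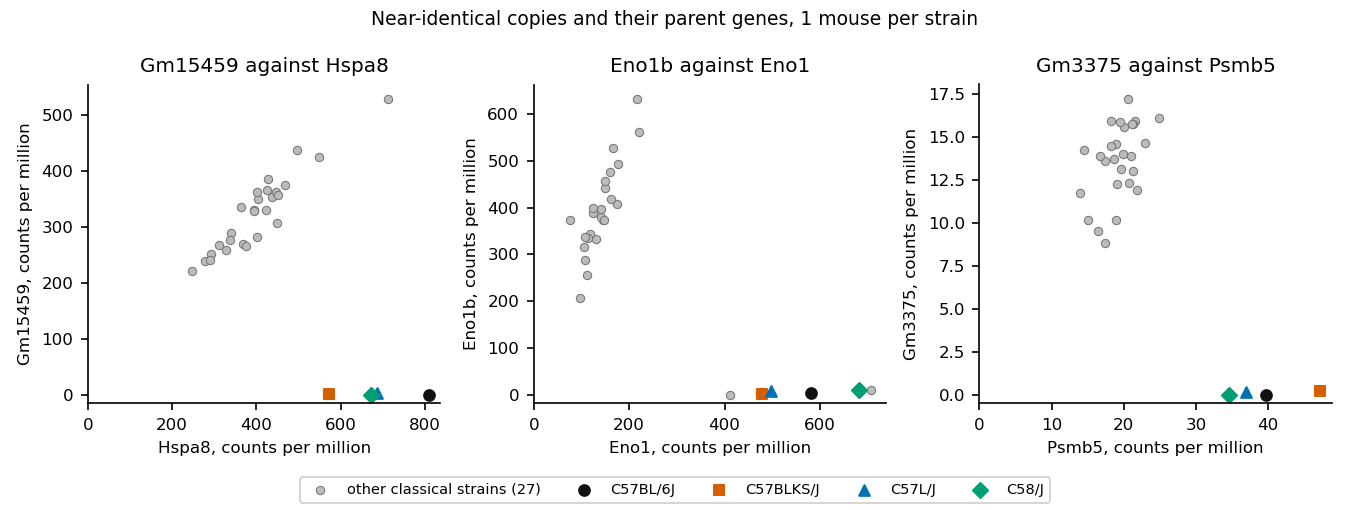
CPM of 3 copies (vertical axes) against their parent genes (horizontal axes), 1 point per strain, with the 4 C57-related strains coloured and the 27 other classical strains in grey. Gm15459 is at most 2.25 CPM and Gm3375 at most 0.177 CPM in the C57-related strains, and 3 grey points join them at the foot of the Eno1b panel. The C57-related strains lie right of every grey point for Psmb5, of all but A/J for Hspa8 and of all but PL/J for Eno1.

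The remaining lower pseudogenes were also scarce in the C57-related strains, and had lower levels than Gm15459 in the others. All 19 averaged under 1 CPM in the C57-related strains, with log2 differences from -8.86 to -4.33. Of these, 7 had 0 counts in all 4 strains. Among these were Gm9855 and Tdg-ps, copies of Tdg, the thymine DNA glycosylase of base excision repair, which averaged 4.90 ± 1.98 CPM and 4.64 ± 1.85 CPM in the 27 others (SD). Against a floor of 3 counts over the group (0.0634 CPM), Gm9855 was at least 77.4-fold lower and Tdg-ps at least 73.2-fold lower. Tdg itself was not called (log2 difference 0.62, SE 0.15, edgeR adjusted p = 0.0594). Counting error only is covered by that floor. Of the 33 lower genes, 17 matched a coding gene at 95.8% to 99.7% identity over at least 90% of their length. The 17, of which 15 are pseudogenes, had 14 parents in all. Taken alone, 3 parents were called (Hspa8, Psmb5 and Eno1), and with the copies added none of the 14 was, with summed log2 differences from -0.26 to 0.27 and a median of 0.03. The copies added were those called lower in these data, so adding them could only lower a parent's log2 difference. Gm13841 and Gm8210, copies of the ribosomal protein gene Rpl29, have the same values in every library, so they are not separate measurements, although both are included in the counts given here. The fit with sums called 38 genes, 25 higher and 13 lower, all of them among the 67. It tested 50 of the 67, since the added copies were no longer tested alone. At an unadjusted p below 0.05, 1 of the 14 summed parents passed (Psmb5).

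Gm5345, on chromosome 8, was the 1 pseudogene that was higher. It was at 3.33, 2.30, 3.64 and 4.01 CPM in C57BL/6J, C57BLKS/J, C57L/J and C58/J and at no more than 0.191 CPM in the other strains, so the groups did not overlap (log2 difference 5.93, SE 0.46).

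Among the 18 other coding genes that were higher, Nnmt, Acpp, Cebpe and Angptl6 did not overlap with the other strains. Nnmt encodes nicotinamide N-methyltransferase, which uses S-adenosylmethionine to methylate nicotinamide and is abundant in liver (chr9:48591877-48605153, GRCm38). It was at 29.1 CPM in C57BL/6J, 33.7 CPM in C57BLKS/J, 14.7 CPM in C57L/J and 63.0 CPM in C58/J, while the other 27 strains ran from 0 to 9.005 CPM with a median of 1.37. The lowest C57-related strain thus lay above the highest other strain, KK/HlJ, and edgeR gave a log2 difference of 4.14 (SE 0.59, adjusted p = 5.59e-05). The call held when each of the 4 strains was left out, with log2 differences from 3.70 to 4.40.

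Acpp, which encodes prostatic acid phosphatase (chr9:104288251-104337748), was at 8.58, 9.63, 3.33 and 2.65 CPM in C57BL/6J, C57BLKS/J, C57L/J and C58/J. No other strain exceeded 0.824 CPM (log2 difference 3.79, SE 0.35, adjusted p = 8.49e-09). C57BL/6J and C57BLKS/J were the higher pair. Cebpe encodes a CCAAT/enhancer binding protein that drives granulocyte maturation and lies close to Psmb5 (chr14:54710360-54712174). It was at 2.54, 7.77, 5.12 and 3.16 CPM in the same order, with a median of 0 and a maximum of 0.447 CPM elsewhere (log2 difference 5.22, SE 0.60, adjusted p = 9.46e-07). Summed neutrophil markers were at 40.9, 5.48, 9.77 and 10.9 CPM in the same order, against 2.12 to 136 CPM in the other strains, and their part in the Cebpe difference was not tested.

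Angptl6, a circulating angiopoietin-like protein made by liver, separated the groups by a smaller margin. It was at 11.6, 13.96, 15.8 and 13.6 CPM in C57BL/6J, C57BLKS/J, C57L/J and C58/J against 2.22 to 10.1 CPM in the others (log2 difference 0.98, SE 0.23, adjusted p = 0.0358). It was no longer called when any 1 of the 4 was left out, with adjusted p from 0.0823 to 0.210 and log2 differences from 0.90 to 1.06. Of the 18 genes, 15 lost the call without at least 1 of the 4 strains, Nnmt, Acpp and Cebpe being the exceptions.

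Several of the others were high in only some of the 4. Mup19, a major urinary protein gene 99.6% identical to Mup2 and so uncertain as a single gene, was at 134 and 271 CPM in C57BLKS/J and C57L/J but at 6.65 and 2.65 CPM in C57BL/6J and C58/J (other strains 0 to 48.8 CPM). Mug2, a murinoglobulin protease inhibitor, was at 716 and 1011 CPM in C57BL/6J and C57L/J but at 55.1 and 50.7 CPM in C57BLKS/J and C58/J, near the other strains' median of 60.5 CPM. Pttg1, the anaphase inhibitor securin, was at 14.97 and 20.2 CPM in C57BL/6J and C57BLKS/J and at 1.71 and 2.13 CPM in C57L/J and C58/J. Sult2a7, a sulfotransferase gene, was at 53.6 CPM in C57BLKS/J and at 0 to 3.41 CPM in the other 3. Its log2 difference was 3.35 with all 4 strains and -0.11 without C57BLKS/J (adjusted p = 0.993). Mup19 and Sult2a7 lost the call without C57BLKS/J or C57L/J, Mug2 without C57BL/6J or C57L/J, and Pttg1 without C57BL/6J or C57BLKS/J.

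Among the 12 other coding genes that were lower, Col6a5, F11r and Mtmr7 did not overlap with the other strains. Col6a5, a chain of collagen VI (chr9:105856078-105960643), was at 0 CPM in C57BL/6J and C57L/J, 0.353 CPM in C57BLKS/J and 0.171 CPM in C58/J, against 0.899 to 8.67 CPM in the others (log2 difference -4.50, SE 0.82, adjusted p = 0.00338). It stayed called without each of the 4 in turn. The call was lost with limma on log2(TPM + 1) (adjusted p = 0.180) and with all panel strains in 1 fit. Its counts in the 4 C57-related strains came to 6 in total. F11r, the tight junction adhesion molecule JAM-A (chr1:171437535-171464603), was at 67.1, 61.6, 74.2 and 66.2 CPM in C57BL/6J, C57BLKS/J, C57L/J and C58/J against 75.5 to 111 CPM, a small shift that separated the groups narrowly (log2 difference -0.51, SE 0.10, adjusted p = 0.00798). Without C57BL/6J or C57BLKS/J its adjusted p was 0.0606 or 0.0697. Mtmr7, a phosphoinositide phosphatase, was at 1.40 to 1.88 CPM against 2.35 to 9.57 CPM (log2 difference -1.46, SE 0.32, adjusted p = 0.0217) and lost the call without any 1 of the 4.

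Cyp2c39, a cytochrome P450 known to oxidise retinoic acid (chr19:39510862-39568529), had one of the largest differences in level. It was at 6.48, 15.02, 4.88 and 5.29 CPM in C57BL/6J, C57BLKS/J, C57L/J and C58/J, while the median of the other strains was 463 CPM and the highest, A/J, 1076 CPM. Another 3 strains lay as low as the C57-related ones: BTBR T<+> tf/J at 3.39 CPM, RIIIS/J at 9.72 CPM and 129X1/SvJ at 13.3 CPM. The log2 difference was -5.86 (SE 1.16, adjusted p = 0.00868), and the adjusted p was 0.0626 without C57BL/6J and 0.0579 without C57L/J. Of the 43 tested genes of P450 families 1 to 3, Cyp2c39 alone was called, and the median log2 difference of the list was 0.02. Ctse, the aspartic protease cathepsin E (chr1:131638306-131675505), was at 0 to 0.427 CPM against a median of 19.7 CPM, with 4 of the 27 others at or below 0.427 CPM (log2 difference -6.74, SE 1.62, adjusted p = 0.04997). It was close to the threshold and lost the call without any 1 of the 4. Glrx, the disulfide reductase glutaredoxin, was at 37.99, 36.6, 21.2 and 35.95 CPM against 34.5 to 79.5 CPM (log2 difference -0.81, SE 0.16, adjusted p = 0.00795). C57L/J was the lowest of all 31 strains, and without it the call was lost. Wnt5a, a secreted signalling protein, was at 0.930 to 1.40 CPM against a median of 3.20 CPM (log2 difference -1.51, adjusted p = 0.0246), and lost the call without any 1 of the 4.

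**Figure D2:**
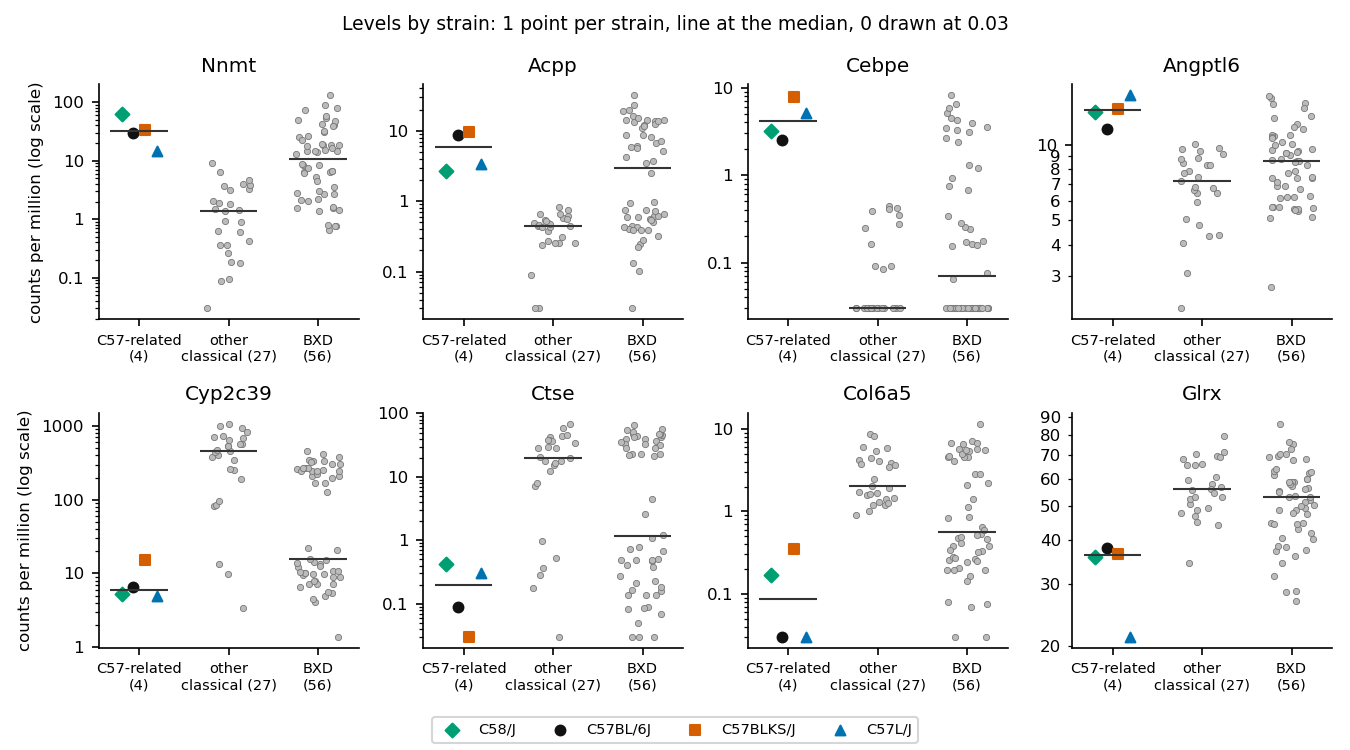
CPM of 8 called coding genes (log axes) in the 4 C57-related strains, the 27 other classical strains and 56 BXD strains, 1 point per strain with a line at the median. In the upper row the coloured points lie above the other classical strains, and in the lower row they lie low. At or below the highest coloured point were 3 other classical strains for Cyp2c39, 4 for Ctse and 1 for Glrx.

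Interferon-stimulated genes are switched on when interferons bind their receptors, and many of them carry a GAAANNGAAA element in their promoters. Of the 47 genes on a list of them, all 47 were tested and 5 were called, all higher (Ifit1, Rsad2, Ifi204, Ifi211 and Trim30d). The log2 difference was positive for 42 of the 47, with a median of 0.80 against -0.02 for all tested genes, and 21 reached an unadjusted p below 0.05. Among all 14551 genes tested, 0.460% were called and 1217 reached an unadjusted p below 0.05. Ifit1 binds RNA that lacks a host cap, and Rsad2 (viperin) makes an antiviral nucleotide. Promoters of both, the 250 bases before the start in the RefSeq table (GRCm38.p6), are shown because both genes carry the element within this window. Capitals mark GAAANNGAAA or its reverse complement TTTCNNTTTC. The Rsad2 promoter is chr12:26456453-26456702 on the - strand, and the Ifit1 promoter is chr19:34640639-34640888 on the + strand.
Rsad2: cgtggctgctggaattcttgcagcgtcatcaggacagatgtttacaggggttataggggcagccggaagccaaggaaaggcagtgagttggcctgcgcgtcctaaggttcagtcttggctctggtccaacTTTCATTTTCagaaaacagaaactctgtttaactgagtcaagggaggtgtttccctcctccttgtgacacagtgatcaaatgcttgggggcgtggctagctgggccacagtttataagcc
Ifit1: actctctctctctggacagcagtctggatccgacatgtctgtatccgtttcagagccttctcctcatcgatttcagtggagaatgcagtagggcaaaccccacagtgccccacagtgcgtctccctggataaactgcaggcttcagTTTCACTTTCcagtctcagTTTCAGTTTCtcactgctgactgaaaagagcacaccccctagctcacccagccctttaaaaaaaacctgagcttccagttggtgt
The element, on either strand, was present in 3.04% of the 27025 RefSeq promoters of this length, in 22 of the 31 listed genes that matched the table, and in 7 of 11 matched among the 12 interferon-type genes called. It was present in none of the 16 matched genes among the other 22 that were higher. A match is a description of letters only.

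Rsad2 was at 107 CPM in C57BL/6J, 11.5 CPM in C57BLKS/J, 195 CPM in C57L/J and 84.03 CPM in C58/J, against 2.54 to 79.3 CPM with a median of 13.7 in the other strains (log2 difference 2.35, SE 0.47, adjusted p = 0.00964). C57BLKS/J lay below the others' median while the other 3 lay above every one of the 27. Its neighbour Cmpk2, a mitochondrial nucleotide kinase on chromosome 12, moved the same way (25.6, 5.56, 26.3 and 12.6 CPM in the same order; log2 difference 1.69, SE 0.34, adjusted p = 0.00964). Ifit1 was at 103, 22.3, 36.8 and 17.6 CPM against 0.932 to 31.04 CPM (log2 difference 2.07, SE 0.48, adjusted p = 0.0358).

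In all, 6 genes of the PYHIN family, which encode sensors and regulators that bind nucleic acid, were called within chr1:173468485-173913046. They were Ifi206, Ifi213, Ifi209, Ifi208, Ifi204 and Ifi211, and all 9 tested genes in that span had positive log2 differences. Ifi213 was at 13.9, 6.62, 6.28 and 2.13 CPM in C57BL/6J, C57BLKS/J, C57L/J and C58/J against 0.320 to 2.83 CPM (log2 difference 2.83, SE 0.38, adjusted p = 2.30e-05). Ifi204 was at 34.1, 10.8, 14.7 and 6.83 CPM against 1.36 to 14.7 CPM (log2 difference 1.78, SE 0.37, adjusted p = 0.0131). C57BL/6J was the highest in both. Ifi213 and Ifi208 are 96.4% identical, so their counts may be divided between them. On chromosome 7, the tripartite motif genes Trim34a, Trim12a and Trim30d were called within chr7:104244457-104507849, a span in which 8 of 9 tested genes were positive. Trim30d was at 19.9, 15.6, 6.90 and 11.9 CPM against 0.460 to 10.8 CPM (log2 difference 2.55, SE 0.49, adjusted p = 0.00691).

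C57BL/6J weighed heavily in this group. It was the highest of all 31 strains in 10 of the 12 genes, and 10 of the 12 lost the call without it, Ifi213 and Trim34a being the exceptions. Without C57BL/6J no gene of the list of 47 was called, and without C57L/J 2 were. Over the list, each gene's log2 CPM was set against the median of the other strains: the median of those differences was 1.91 in C57BL/6J, 0.65 in C58/J, 0.59 in C57BLKS/J and 0.41 in C57L/J. Among the 31 strains C57BL/6J ranked first, while I/LnJ (1.22), DBA/2J (0.90) and others came before the remaining 3, which ranked 6, 8 and 12. Summed Kupffer cell and macrophage markers were at 1730, 634, 1234 and 1282 CPM in C57BL/6J, C57BLKS/J, C57L/J and C58/J against 614 to 1805 CPM with a median of 993. None of the 17 markers was called, and their part in the interferon result was not tested. In whole liver, fewer cells of a type and less RNA per cell cannot be told apart.

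**Figure D3:**
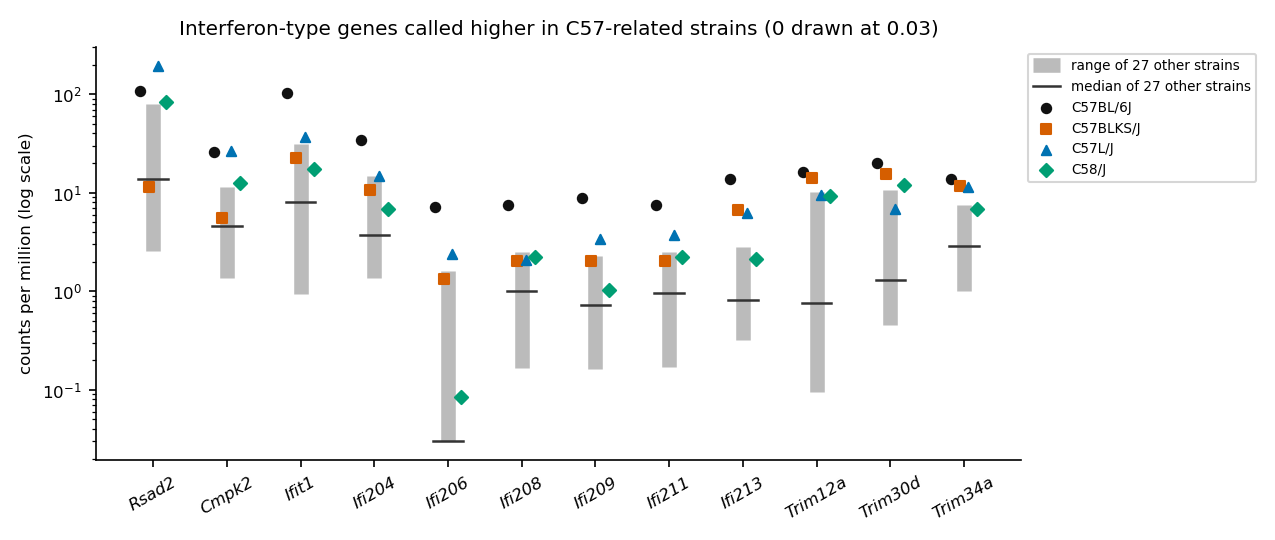
CPM (log axis) of the 12 interferon-type genes called higher, with the 4 C57-related strains as coloured points and the range and median of the 27 other classical strains in grey and black. The black circles of C57BL/6J are the highest in 10 of the 12 genes, and Rsad2 in C57BLKS/J lies near the other strains' median of 13.7 CPM.

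Genes of iron handling did not differ detectably between the groups. Hepcidin, the liver hormone that blocks iron export and that rises with liver iron through BMP signalling, is encoded by Hamp. Hamp was at 826, 1149, 848 and 1086 CPM in C57BL/6J, C57BLKS/J, C57L/J and C58/J against 238 to 1235 CPM in the others, so 13 of the 27 lay within the C57-related range (log2 difference 0.28, SE 0.26, adjusted p = 0.834). Bmp6, the ligand that endothelial cells release when iron accumulates, was at 36.1, 15.3, 27.7 and 44.5 CPM against 5.79 to 39.2 CPM (log2 difference 0.49, SE 0.30, adjusted p = 0.719). Hamp2, a second hepcidin gene, ran from 98.6 to 369 CPM against 26.9 to 2798 CPM (log2 difference -0.81, SE 1.08, adjusted p = 0.906). None of the 21 tested genes of the hepcidin and BMP list was called (18 positive, median 0.10, 1 at an unadjusted p below 0.05), nor was any of the 22 genes of iron uptake, storage and export (6 positive, median -0.11, 1 at an unadjusted p below 0.05). DESeq2 called none of either list. Of all 14551 genes tested, 0.460% were called and 1217 reached an unadjusted p below 0.05. Lists this short with no call are near that share, so the counts say little about iron handling as a whole.

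Of the 26 gene lists, only the interferon, P450 and major urinary protein lists held a called gene. With 0.460% of all genes tested called, a list without a called gene is near the overall share. An unadjusted p below 0.05 was reached by 1217 of all 14551 genes. Acute phase genes had negative differences in 17 of 19 (median -0.49), and NRF2 targets in 15 of 20 (median -0.32), with none called and 2 and 1 at an unadjusted p below 0.05. Proliferation genes were negative in 17 of 20 (median -1.04, 2 at an unadjusted p below 0.05), although Ccnf and Pttg1 were called higher outside that list. Their summed level was 405, 271, 150 and 155 CPM in C57BL/6J, C57BLKS/J, C57L/J and C58/J against a median of 185 CPM in the others, and the first pair lay above that median. Erythroid markers were negative in all 8 tested (median -2.01, 1 at an unadjusted p below 0.05), and their summed level ran from 16.2 to 315 CPM in the 4 strains against 9.51 to 2631 CPM, a range that holds all 4. Neutrophil markers were negative in 9 of 10 (median -1.93, 1 at an unadjusted p below 0.05). Hc, which encodes complement C5, and Nnt, the mitochondrial transhydrogenase, carry textbook strain alleles. Hc was at 652 to 1028 CPM against 77.9 to 1101 CPM (adjusted p = 0.858). Nnt was at 14.1 CPM in C57BL/6J, 28.3 CPM in C57BLKS/J, 45.4 CPM in C57L/J and 36.5 CPM in C58/J, against 12.6 to 72.2 CPM (log2 difference -0.19, SE 0.33, adjusted p = 0.937). C57BL/6J was the lowest of the 4.

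Each gene's log2 CPM was centred over the 31 strains, and strains were compared by the correlation of these deviations across the 14551 genes, which are not independent. The correlation was highest for C57BL/6J with C57L/J (0.28), followed by C58/J with C57BL/6J (0.27) and with C57L/J (0.23). C57BLKS/J correlated at 0.22 with C57L/J, 0.20 with C57BL/6J and 0.09 with C58/J, and its closest strains were DBA/2J (0.32), CBA/J (0.29) and CE/J (0.28). The 6 pairs within the C57-related strains had a median of 0.23, and the 108 pairs of a C57-related with another strain a median of -0.07. The 351 pairs within the other strains ran from -0.37 to 0.53 with a median of -0.04. All values share libraries of single mice and are given as a description.

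A gene was counted as standing apart in 1 strain if its log2 CPM (prior count 2) lay at least 2 from the nearest of the other 3, those 3 spanned at most 1, and the higher side averaged at least 1 CPM. C57BLKS/J had 55 such genes, C58/J 42, C57L/J 41 and C57BL/6J 27. DBA/2J lay nearer to the strain that stood apart than to the median of the other 3 in 35 of the 55 genes of C57BLKS/J (63.6%), 17 of the 42 of C58/J (40.5%), 13 of the 41 of C57L/J (31.7%) and 8 of the 27 of C57BL/6J (29.6%). These shares carry no test. Pseudogenes made up 26 of the 55 in C57BLKS/J, 23 of the 41 in C57L/J, 10 of the 42 in C58/J and 9 of the 27 in C57BL/6J. On the log2(TPM + 1) scale 27, 14, 28 and 12 genes stood apart in C57BLKS/J, C58/J, C57L/J and C57BL/6J.

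**Figure D4:**
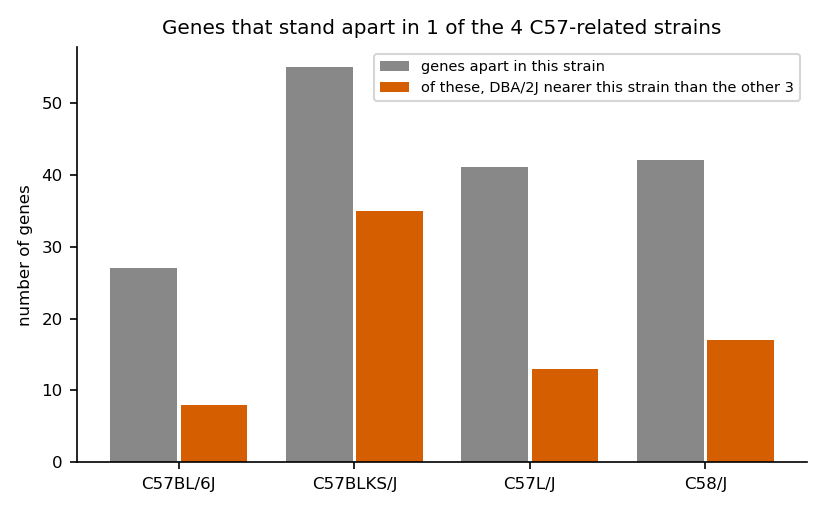
Number of genes that stood apart in each of the 4 C57-related strains (grey bars), and in how many of those DBA/2J was nearer to that strain than to the median of the other 3 (orange bars). The orange bar is 35 of 55 in C57BLKS/J and 8 of 27 in C57BL/6J.

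In C58/J the genes farthest from the other 3 included Ifi202b, Robo4 and Olfr1034. Ifi202b, a PYHIN family member, was at 18.8 CPM in C58/J and at 0 CPM in the other 3, with a median of 4.42 CPM in the other classical strains. Robo4, an endothelial guidance receptor, was at 0 CPM in C58/J, 8.04 to 15.8 CPM in the other 3 and 4.71 to 20.7 CPM in all 27 others, so C58/J stood alone among the 31. The odorant receptor gene Olfr1034 was at 0 CPM in C58/J and 6.92 to 10.3 CPM in the other 3. Its median in the 27 others was also 0 CPM, and 24 of them lay nearer to C58/J than to the other 3. The pseudogene Gm45910 was at 45.1 CPM in C58/J and at most 0.465 CPM in the other 3, which here are the strains unlike the rest (17.4 to 66.8 CPM in the 27).

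In C57L/J, Serpina3c, a kallikrein-binding serine protease inhibitor, was at 422 CPM against 4.42 to 7.53 CPM in the other 3, with a median of 246 CPM in the other classical strains. The pseudogenes Gm6768, Gm8990 and Gm47036 were at 27.4, 6.74 and 5.19 CPM there and at 0 CPM in the other 3. In C57BLKS/J, Fam177a was at 0 CPM against 5.51 to 9.38 CPM in the other 3, and DBA/2J was also at 0 CPM. The pseudogenes Gm37009 and Gm8420 were at 23.1 and 8.13 CPM in C57BLKS/J and at 28.3 and 7.12 CPM in DBA/2J, and at no more than 0.0854 CPM in the other 3. Gm12166 was at 4.59 CPM in C57BLKS/J and 3.80 CPM in DBA/2J. In C57BL/6J the 4 farthest were pseudogenes: Rpl3-ps1 and Rpl34-ps1 were at 0 CPM against 46.03 to 54.3 CPM and 27.8 to 38.7 CPM, and Gm13835 and Rpl19-ps11 were at 14.1 and 4.38 CPM against 0 CPM.

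BXD strains are recombinant inbred lines bred from C57BL/6J and DBA/2J, so each carries 1 parent's allele at most loci. For genes whose groups did not overlap and whose level differed by at least 1 log2 unit between the 2 parents, BXD strains were counted on either side of the parents' midpoint in log2 CPM. On the side of C57BL/6J lay 32 of 56 BXD strains for Nnmt, 29 for Acpp, 18 for Cebpe, 29 for Col6a5 and 31 for Mtmr7. The split was less clean for some: within 12.5% of the gap between the parents on either side of the midpoint lay 10 BXD strains for Nnmt, 12 for Col6a5 and 13 for Mtmr7, against 1 for Acpp and 3 for Cebpe. For the copies the numbers were 20 for Gm15459, 17 for Gm3375, 34 for Gm9855 and 34 for Tdg-ps. The 17 BXD strains had Gm3375, on chromosome 7, at no more than 0.171 CPM. Psmb5, on chromosome 14, was at 31.4 to 47.8 CPM in those 17 and at 14.9 to 32.2 CPM in the other 39. Why Gm3375 was low where Psmb5 was high was not tested. Of the 56, 28 exceeded all 27 other classical strains for Nnmt and 31 did so for Acpp. BXD levels of Nnmt ran from 0.662 to 131 CPM and those of Acpp from 0 to 32.1 CPM, both reaching above the C57-related strains.

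A further 3 C57BL/6J males, from a separate diet study in the series, were also on 2% iron and did not enter the test. Strain is taken from the label: Nnt was at 13.5 to 15.96 TPM in these mice and 4.78 TPM in C57BL/6J of the panel, and whether both are the same substrain was not tested. Their deposited TPM values (length-scaled transcript abundance) come from a table normalized on its own, so levels are set side by side without a test. Of the 66 called genes in both tables, 65 had the middle of these 3 mice on the C57-related side of the median of the 27 strains (33 of 34 higher and 32 of 32 lower), Sult2a7 being the exception. In 32 of the 66 all 3 mice lay beyond every one of the 27 strains. Shares over all genes tested are not given here for either count. The 66 were called with C57BL/6J in the C57-related group. Both counts thus bear on that strain, and not on the other C57-related strains. Nnmt was at 12.5, 14.7 and 24.4 TPM in the 3 mice, 35.8 TPM in C57BL/6J of the panel and at most 13.8 TPM in the other strains. Cyp2c39 was at 4.99 to 5.43 TPM against a median of 298 TPM. Rsad2 was at 21.8, 38.9 and 39.3 TPM against 0.683 to 21.7 TPM, and Ifit1 at 21.2 to 34.4 TPM against 0.366 to 14.97 TPM, so both interferon-type genes were high in these mice as well. Gm15459 was at 0 to 0.898 TPM, and Hspa8 at 577 to 603 TPM against 150 to 432 TPM.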

How the data were processed

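Gene expression was measured by RNA-seq in liver, from 1 mouse per strain, and groups follow the strain labels. The authors deposited expected counts per gene (27.4% of values not whole, no normalization; unit judged from the values) and TPM. Per the submitters' processing notes, kallisto 0.46 and mm10 were used, with no role stated. Deposited TPM summed to 994114 to 997301 per panel library and to 1000000 in the diet study. Of 35711 panel identifiers 35612 matched GENCODE M21 (GRCm38), which gave symbols, biotypes and coordinates. The strand setting of the counting is not given in the sources used here.

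Expected counts were rounded and tested with edgeR 4.0.16 (TMM, filterByExpr, quasi-likelihood test, Benjamini-Hochberg over all genes tested) in R 4.3.3, with both groups in 1 fit and no covariate, since the labels give no batch. CPM used TMM library sizes. DESeq2 1.42.0 and limma 3.58.1 on log2(TPM + 1) and log2(TPM + 0.1) were alternatives, together with other scaling, filters and left-out strains. Copies were found with BLAST 2.17.0 (at least 95% identity over 90% of the length). The rounded library totals set the precision.

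Genes were named by rule: called, groups not overlapping, at least 1 CPM in the higher group, predicted genes left out, plus Hamp, Hamp2, Bmp6, Hc and Nnt, up to 4 called genes per list and up to 4 genes apart per strain. Copies, their parents, Ifit1, Cmpk2, the PYHIN and Trim genes, Ctse, Glrx, Wnt5a, Ccnf, Pttg1, Mug2 and Sult2a7 were named after their values were seen. Groups and the 26 gene and 10 marker lists were chosen with earlier results of these data known.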

Additional observations from a re-analysis of the deposited data

Results flagged for a closer look

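Among the 39 genes examined, 4 had 1 of the C57-related strains far from the other 3 in CPM, by a gap that took up most of the range of the 4. For 4 values from a normal distribution, chance gives such a gap in about 5% of groups. CPM need not be normal, and most of these genes were called on the same libraries, so that rate may not hold here. Cyp2c39 was at 15.02 CPM in C57BLKS/J and 4.88 to 6.48 CPM in the other 3. Ifi208 was at 7.53 CPM in C57BL/6J and 2.03 to 2.22 CPM in the other 3. Sult2a7 was at 53.6 CPM in C57BLKS/J and 0 to 3.41 CPM in the other 3. Glrx was at 21.2 CPM in C57L/J and 35.95 to 37.99 CPM in the other 3.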

How the results depend on the processing

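No paired analysis was possible because each strain is 1 mouse and replicate numbers pair no samples across groups. The 67 calls became about 1.7e+02 with DESeq2 (52 higher, 121 lower). There were 18 with at least 10 counts in every library, where 25 of the 67 were tested. Adding copies to parents gave 38, with 50 of the 67 tested, since the added copies were no longer tested alone. The split by direction was 12 higher and 51 lower with limma on log2(TPM + 0.1) (63 calls), and 44 higher and 16 lower with all panel strains in 1 fit (60 calls, 21 of them among the 67 and none of those lower). The cause was not tested. The limma fits shifted the median of all genes to -0.11 and -0.14. Leaving out 1 strain gave 34 to 87 calls, 34 without C57BL/6J and 87 without KK/HlJ. Interferon list calls numbered 5, but 2 with at least 10 counts in every library, 1 with either limma fit, and 0 to 6 with 1 strain left out. Genes apart on the log2(TPM + 1) scale fell to 12 in C57BL/6J, 27 in C57BLKS/J and 14 in C58/J. Direction reversed for Hamp2 with limma (log2 0.25 with either pseudocount), Nnt without C57BL/6J (-0.43 to 0.065 with 1 strain left out), Sult2a7 without C57BLKS/J (-0.11 to 3.83 with 1 strain left out), and, with copies added, Hspa8 (-0.086) and Tdg (-0.15).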

Other observations

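Levels in C57BL/6J of the panel and in the 3 C57BL/6J mice of the diet study on 2% iron were far apart for some genes, 2 of which are given here, chosen after their values were seen. Nnt was at 4.78 TPM in the panel mouse and at 13.5 to 15.96 TPM in the diet study. Mup19 was at 8.69 TPM in the panel mouse and at 158 to 229 TPM in the diet study. Pttg1, in contrast, was at 22.1 TPM in the panel mouse and at 22.4 to 29.3 TPM in the diet study. The tables were normalized separately, and the differences were not tested.

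Of the other classical strains, KK/HlJ lay nearest to the C57-related side: it was closer to the C57-related median than to the others' median in 24 of the 67 called genes, followed by NOR/LtJ and I/LnJ with 12 each. C57BL/6J and C57L/J were on their own side in 64 of 67, C57BLKS/J in 60 and C58/J in 57. The 67 were called on these same libraries, so counts of this kind follow in part from that choice.

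Called genes lay close together in 7 places, with neighbours at most 1000000 bases apart, which together held 20 of the 67. Sytl1 and Wdtc1 on chromosome 4 were both higher, whereas Ngrn fell and Pde8a rose on chromosome 7, and Mtmr7 fell beside the higher pseudogene Gm5345 on chromosome 8. In C58/J the major histocompatibility genes H2-Q1, H2-Q7, H2-T22 and H2-T23 were among the 42 genes that stood apart, and are named after their values were seen.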
